A study of Mus musculus with 18 samples.

Results

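The 6 mouse colon libraries of the group named Control were not alike in Hoxa13 and Hoxb13, homeobox genes of the distal colon. Control 3, 4, 5 and 6 had both genes under 10 CPM (the read count of a gene per M counts of its library, with M for mega) and are called Hox-low here. Control 1 and 2 had both genes above that level and are called Hox-high. The 12 libraries of the groups GF-AOM and GF-AOMS, 6 each, were all Hox-high. In the contrast they served only as a further reference, and genes were also tested against Hoxb13 within them. This makes 18 libraries in all. The series compared colorectal tissue by RNA sequencing of total RNA from male C57BL/6J mice aged 10 weeks. RNA had an integrity number of at least 7, ribosomal RNA was depleted and strand information was kept.

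The labels describe the groups in conflicting ways. By the sample characteristics, Control mice were wild-type SPF (specific pathogen-free) animals with colorectal cancer induced by azoxymethane (AOM, a carcinogen), GF-AOM mice were germ-free and given AOM, and GF-AOMS mice were germ-free and given AOM and cigarette smoke. By the treatment protocol, Control was a normal control, GF-AOM was given AOM, and GF-AOMS was given AOM and smoke, and the growth protocol names an SPF facility for the mice. Nothing in the labels says which stretch of colon a library came from, or that each library was a separate mouse. All libraries carry the same batch name. The Hox-low and Hox-high Control libraries therefore share every label but their number.

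Hox genes are laid out in clusters, and in the hindgut the genes near the 5′ end of a cluster, the paralogue groups 10 to 13, are expressed towards the anus. The colon also differs along its length in what its epithelium does. In the mouse, Car1, a cytosolic carbonic anhydrase, and many enzymes of detoxification are known from the proximal colon, and Insl5, a peptide hormone of enteroendocrine L cells, from the distal colon and rectum. In bulk tissue, fewer cells of a type and less RNA per cell cannot be told apart.

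Hoxa13 (ENSMUSG00000038203, chromosome 6, 52257694 to 52260880) stood at 2.85, 0.837, 0 and 3.09 CPM in Control 3 to 6. It stood at 44.4 and 34.6 CPM in Control 1 and 2, with 17.8 to 55.1 CPM across the GF libraries (median 43.9 CPM). Hoxb13 (ENSMUSG00000049604, chromosome 11, 96194316 to 96197447) stood at 2.64, 2.67, 3.07 and 2.61 CPM in Control 3 to 6, at 129 and 295 CPM in Control 1 and 2, with 14.3 to 319 CPM across the GF libraries. The members were thus chosen by these measured values, and the difference in both genes is not a finding. Nearest below the limit of 10 CPM were Control 6 in Hoxa13 at 3.09 CPM and Control 5 in Hoxb13 at 3.07 CPM. Nearest above it among the Control libraries were Control 2 in Hoxa13 at 34.6 CPM and Control 1 in Hoxb13 at 129 CPM, and among all libraries GF-AOMS 2, at 17.8 and 14.3 CPM.

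Car1 (ENSMUSG00000027556, chromosome 3, 14766216 to 14808365) was not used to divide the libraries. It was at 5791, 19560, 10530 and 6347 CPM in Control 3 to 6, and at 727 and 650 CPM in Control 1 and 2. The GF libraries ran from 141 to 857 CPM with a median of 446 CPM. Every Hox-low library was therefore above each of the 14 Hox-high libraries, and the mean log2 difference from Control 1 and 2 was 3.76. The labels Hox-low and Hox-high are used below, since they state only what was measured.

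**Figure D1:**
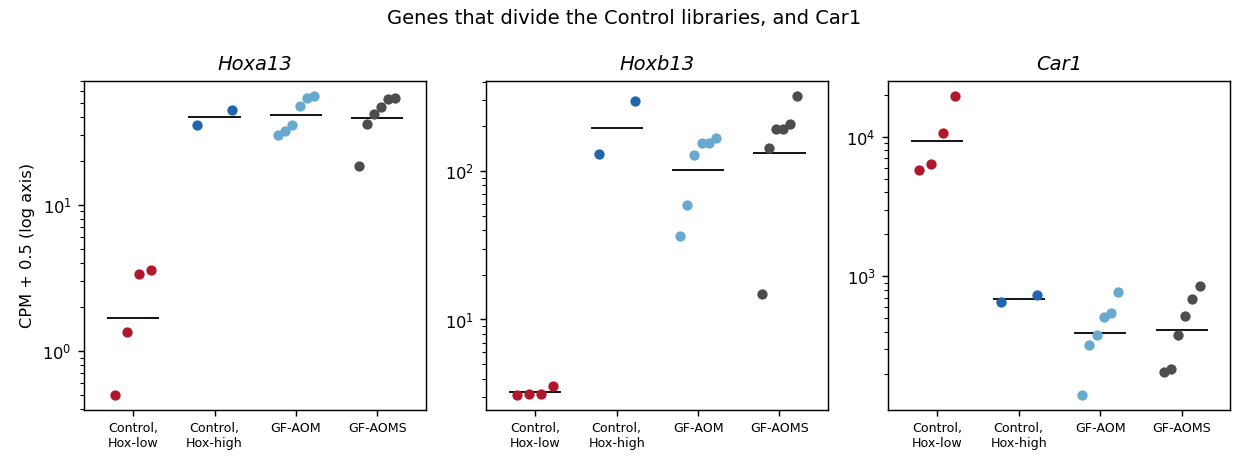
Levels of Hoxa13, Hoxb13 and Car1 in CPM + 0.5 on a log axis, with 1 point per library and a black line at the geometric mean of each set. The 4 Hox-low Control libraries lie below the other 14 libraries in both Hox genes and above them in Car1.

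The total of counts per library lay between 48.95 M and 79.23 M, the highest in Control 6. Ribosomal protein genes took 5.43%, 6.56%, 4.72% and 9.54% of the counts in Control 3 to 6, 6.05% and 13.9% in Control 1 and 2, and 6.47% to 23.9% in the GF libraries, the highest in GF-AOMS 2. The first principal component of log2 CPM held 48.7% of the variance and ran with that share. The next held 14.8% and placed the Hox-low libraries at 0.23 to 0.54 and Control 1 and 2 at -0.1 and -0.07. Across genes, the correlation of log2 CPM was 0.954 to 0.974 between Hox-low libraries, 0.951 between Control 1 and 2, and 0.908 to 0.958 between a Hox-low library and Control 1 or 2. The ranges overlap, and genes within a library are not independent replicates.

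Because the libraries were divided by their own measured values, the contrast is given as a description, without a test. For each of the other 10895 genes, the difference is the mean log2(CPM + 0.5) of the 4 Hox-low libraries minus that of Control 1 and 2, so folds of low genes are understated. A gene counts as higher or lower when the difference is at least 2-fold and all 4 Hox-low libraries lie on one side of all 14 Hox-high libraries. By this rule 131 genes were higher, or 1.20% of those compared, and 39 were lower, or 0.358%. Against Control 1 and 2 alone, 276 genes (2.53%) were higher and 137 (1.26%) lower. The median difference of all genes was 0.13, with 6977 genes above 0 and 3918 below.

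That shift of the median bears on the balance of the counts. With TMM scaling, under which the median came to 0 when rounded, 101 genes were higher and 68 lower, of which 89 and 38 were among those above. Control 2 also bears on it. It lay below Control 1 in 123 of the 131 higher genes, where the share over all genes was 70.7%, and it had the larger ribosomal protein share of the pair. Its part in the count was not tested, but without Control 2 the higher genes numbered 79, of which 78 were among the 131. Without Control 1 they numbered 200, and without Control 6 they numbered 225.

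The table limits what the contrast can show. Each gene in it reached an FPKM (fragments per kilobase of transcript, scaled by depth) of 1 in 15 or more of the 18 libraries. A gene off in all 4 Hox-low libraries cannot be in it. Differences in the lower direction are thus of genes that kept some signal in the Hox-low set or came close to the limit. A gene on in the 4 Hox-low libraries alone cannot be in the table either. The higher genes are thus ones with signal in most Hox-high libraries as well.

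Few other Hox genes were measured. Hoxa10 (ENSMUSG00000000938, chromosome 6, 52231197 to 52240795) stood at 11.3, 7.39, 9.4 and 14 CPM in Control 3 to 6, against 67.1 and 63.1 CPM in Control 1 and 2 and 58.2 to 87.4 CPM in the GF libraries. The difference was -2.61, and the 2 sets did not overlap. Hoxa11os, a noncoding RNA antisense to Hoxa11 (chromosome 6, 52244393 to 52249799), stood at 3.51, 3.65, 3.95 and 6.73 CPM in Control 3 to 6 against 49.8 and 41.8 CPM, a difference of -3.26. Hoxa11 itself was at 6.95, 4.44, 4.57 and 8.29 CPM against 12.1 and 8.97 CPM, with GF libraries from 8.94 CPM upward. Its Hox-low libraries also lay below all 14 others, but the difference of -0.78 was under 2-fold and it was not counted. Whether the authors' counting used strand is not given in the sources used here, so reads of Hoxa11 and its antisense RNA may not be fully divided between them.

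Hoxb9, which lies nearer the 3′ end of its cluster (ENSMUSG00000020875, chromosome 11, 96271457 to 96276595), had the other sign. It was at 79.2, 70.1, 94.4 and 67.2 CPM in Control 3 to 6, at 38.2 and 27 CPM in Control 1 and 2, with 12.7 to 55.2 CPM across the GF libraries, a difference of 1.25. Hoxa7 was at 20.5, 17, 12.2 and 18.8 CPM against 25.7 and 18.2 CPM and Hoxa5 at 2.97, 2.59, 2.16 and 4.85 CPM against 6.06 and 4.01 CPM. Both overlapped, with differences of -0.35 and -0.63, so of the 3 measured genes of groups 1 to 9 Hoxb9 alone was above 0. Of the 6 Hox cluster genes measured besides the pair that divided the libraries, 1 was higher and 2 were lower by the rule. Over all genes the shares were 1.20% and 0.358%.

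Of the gene lists used, that of enzymes and transporters for foreign compounds held the most higher genes. Of 45 measured genes of xenobiotic metabolism, 16 were higher and 1 lower, beside 1.20% and 0.358% over all genes. The difference was above 0 in 41 of them, where it was in 6977 of all 10895 genes. Their median difference was 1.05 against 0.13 over all genes. Their summed level was 7979 to 14060 CPM in the Hox-low libraries, 3532 and 4637 CPM in Control 1 and 2, and 2411 to 5516 CPM in the GF libraries. These lists were drawn up with results of these data known, so the counts describe and support nothing.

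Ugt1a1 (ENSMUSG00000089960, chromosome 1, 88211959 to 88218997), the enzyme that conjugates bilirubin with glucuronic acid, had the largest difference of the higher genes. It was at 285, 191, 168 and 229 CPM in Control 3 to 6, at 17.4 and 1.67 CPM in Control 1 and 2, with 3.81 to 85.6 CPM across the GF libraries. The difference was 5.10, and 3.58 without Control 2 or 6.62 without Control 1. Ugt1a6a, which was chosen after its values were seen, was at 204, 221, 249 and 237 CPM against 44 and 34.2 CPM, a difference of 2.54. The Ugt1a genes share their last exons and overlap in the annotation, so counts may be split between them unevenly.

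Several carboxylesterases, which cleave ester and amide bonds in drugs and lipids, were higher, some of them neighbouring genes, while Ces2g had a difference of -0.49 and was not counted. Ces1g (chromosome 8, 93302369 to 93337308) stood at 95.9, 205, 63.1 and 103 CPM in Control 3 to 6, at 6.85 and 3.42 CPM in Control 1 and 2, with 1.87 to 16.1 CPM across the GF libraries, a difference of 4.31. Ces1f (chromosome 8, 93256236 to 93279747) stood at 119, 137, 128 and 133 CPM against 25.7 and 6.75 CPM, a difference of 3.24 that was 2.31 without Control 2 and 4.16 without Control 1. In both genes the Hox-low libraries lay wholly above the GF libraries, of which the highest had 31.2 CPM of Ces1f. Ces2a, Ces2c and Ces2e, chosen after their values were seen, had differences of 2.21, 1.51 and 1.77 and were higher by the same rule. These genes are close copies, and reads they share may be divided unevenly.

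Among cytochrome P450 genes of this list, whose products oxidise drugs and fatty acids, the differences ran from -0.90 in Cyp2d34 to 3.31 in Cyp2c55, and 3 that were counted as higher are described here. Cyp2c55 (chromosome 19, 39007019 to 39042693) stood at 2125, 3290, 1073 and 2242 CPM in Control 3 to 6, at 317 and 131 CPM in Control 1 and 2, with 30.9 to 478 CPM across the GF libraries. Its difference was 3.31, and 2.67 without Control 2 or 3.94 without Control 1. Its neighbour Cyp2c65 was at 319, 406, 325 and 245 CPM against 77.5 and 17.4 CPM, a difference of 3.10, with 2.03 and 4.16 for the same omissions. Cyp4b1 was at 44.4, 37, 9.92 and 30.1 CPM against 4.19 and 1.97 CPM, a difference of 2.99, and Control 5 was the lowest of the 4 libraries in Cyp2c55 and Cyp4b1.

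Further steps of conjugation and export were higher as well. Ugdh, which makes the UDP-glucuronic acid that UGT enzymes use, was at 522, 746, 505 and 507 CPM against 163 and 81.7 CPM, a difference of 2.28. Papss2, which makes the sulfate donor of sulfotransferases, differed by 1.76, and the drug efflux pump gene Abcb1a by 1.86, from 396, 455, 306 and 287 CPM against 123 and 76.5 CPM. Ugdh, Papss2 and Abcb1a were chosen after their values were seen. The 1 gene of the group counted as lower was Adh1, an alcohol dehydrogenase, at 84.6, 82.5, 47.2 and 123 CPM against 335 and 384 CPM and 132 to 772 CPM in the GF libraries, a difference of -2.16.

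**Figure D2:**
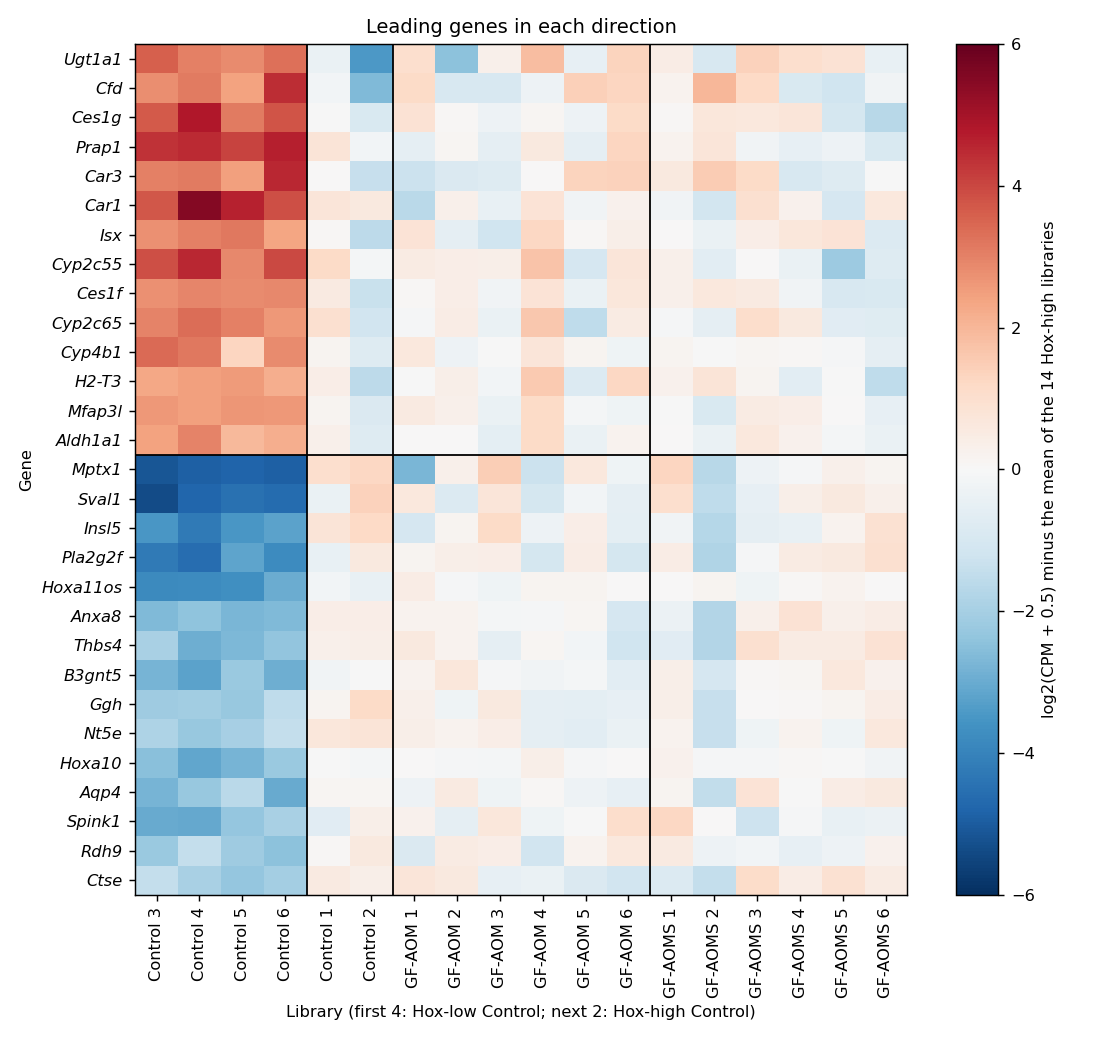
Differences of 14 leading higher genes and 15 leading lower genes in all 18 libraries, as log2(CPM + 0.5) minus the mean of the 14 Hox-high libraries, with red above and blue below that mean. The 4 Hox-low columns on the left are red in the upper block and blue in the lower block, and in the lower block GF-AOMS 2 is a lighter blue in most rows.

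Genes of fatty acid oxidation and ketogenesis mostly had small differences of 1 sign. Of the 21 measured, 20 had a difference above 0, where 6977 of all 10895 genes did. The median was 0.53 against 0.13 over all genes. Cpt1a, which admits fatty acids to mitochondria and was chosen after its values were seen, was at 253, 221, 306 and 194 CPM against 186 and 116 CPM, and the GF libraries reached 251 CPM. Ehhadh, of the peroxisomal pathway, was at 67.5, 64.6, 56.8 and 49.8 CPM against 39.4 and 27.4 CPM, a difference of 0.84. Its Hox-low libraries lay above all GF libraries, of which the highest had 49.3 CPM, but the difference was under 2-fold.

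Carbonic anhydrases, which interconvert carbon dioxide and bicarbonate, had a median difference of 1.04 over 8 measured genes. Of the 8, 2 were higher by the rule, beside 1.20% over all genes. Car1 and its neighbour Car3 were those 2. Car8, a family member that lacks the enzyme activity, was at 199, 151, 178 and 255 CPM against 60.5 and 25 CPM, but GF libraries reached 158 CPM. Car4, bound to the cell surface, had the other sign at 324, 303, 135 and 335 CPM against 505 and 418 CPM, a difference of -0.83. Car2 differed by 0.51, so members of the family differed in sign. Car4 and Car2 were chosen after their values were seen.

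The lists of ion transport genes gave no counted member, which lists of this size would often give at the 1.20% and 0.358% counted over all genes. Of 15 genes of chloride, bicarbonate and proton transport 0 were counted, with a median difference of 0.56, and of 12 genes of sodium and potassium transport 0, with a median of 0.13 that was -0.01 with TMM scaling. Aqp4, a water channel of the basolateral membrane, was at 66, 95.9, 148 and 56.3 CPM in Control 3 to 6 against 492 and 493 CPM in Control 1 and 2, and 163 to 809 CPM in the GF libraries. Its difference was -2.52 without overlap. Aqp8, a channel of surface colonocytes, was uneven within the Hox-low set at 10.1, 298, 37 and 18.1 CPM, against 400 and 252 CPM, and was not counted. Its difference of -3.05 was -4.03 without Control 4 and -2.42 without Control 3. Aqp11 had the other sign with a difference of 1.28 and was counted as higher.

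Other leading genes of the higher set have varied roles. Isx, an intestine-specific homeobox factor that limits vitamin A uptake, was at 93.3, 111, 122 and 72.2 CPM in Control 3 to 6, at 14.2 and 4.2 CPM in Control 1 and 2, with 5.65 to 32.7 CPM across the GF libraries, a difference of 3.56 that was 2.74 without Control 2 and 4.39 without Control 1. Aldh1a1, which makes retinoic acid, was at 287, 420, 203 and 238 CPM against 65.4 and 30.7 CPM, a difference of 2.61. Prap1, a secreted epithelial protein gene, was at 39.2, 43.7, 32.2 and 50.5 CPM against 2.89 and 1.25 CPM, a difference of 4.09. H2-T3, a class I-like molecule of the intestinal epithelium, was at 69, 75.5, 80.4 and 63.5 CPM against 18.1 and 4.2 CPM, a difference of 2.95, with 1.96 and 3.94 without Control 2 and without Control 1. Mfap3l was at 69.7, 63.3, 71.3 and 69 CPM against 12.7 and 5.87 CPM, a difference of 2.91. In each of these 5 genes the Hox-low libraries lay above all GF libraries.

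Transcription factors of the gut mostly showed differences under 2-fold. Of 24 measured, 22 had a difference above 0, where 6977 of all 10895 genes did, and the median was 0.49. Isx was the 1 counted, as higher, beside 1.20% over all genes. Against Control 1 and 2 alone 3 were higher and 1 lower, beside 2.53% and 1.26%. Hnf4g was at 22.3, 40, 24.2 and 18.9 CPM against 13.2 and 5.61 CPM, a difference of 1.49. GF libraries reached 21.3 CPM, so Hnf4g was not counted. Cdx2, which sets intestinal identity, was at 310, 390, 400 and 266 CPM against 252 and 179 CPM, with GF libraries up to 322 CPM. Foxa2 was lower at 13.2, 12.6, 10.6 and 10.5 CPM against 23.6 and 25.9 CPM, but GF libraries reached down to 10.7 CPM. Of 19 nuclear receptors, Nr1h4, the bile acid receptor FXR, and Pparg were counted as higher, beside 1.20% over all genes. Nr1h4 was at 93, 92.1, 113 and 95.7 CPM against 39 and 25.1 CPM and 25.9 to 59.4 CPM in the GF libraries, a difference of 1.63. Cdx2 was chosen after its values were seen.

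Promoters of the counted genes were read from RefSeq on build GRCm38.p6, from 250 bases before to 50 after the start. A promoter was found for 102 of the 131 higher genes, 24 of the 39 lower genes and 7884 of all genes compared. Their median GC content was 56.8%, 54.7% and 60.7%. In all, 12 short strings were searched on both strands, several of them parts of others. AAAGTCC, the core of a site read by HNF4 receptors, was found in 15 of the 102 higher promoters (14.7%), 1 of the 24 lower ones (4.17%) and 4.30% of all. TTTATG, part of sites read by CDX factors, was found in 14.7%, 12.5% and 6.18%, and TATAAA, the TATA box, in 17.6%, 12.5% and 7.39%. GATAA was found in 26.5%, 37.5% and 15.8%. TCGTAAA, part of a HOX13 site, was found in 0 of the higher promoters, 1 of the 24 lower ones (4.17%) and 0.748% of all. CTCGTAAA, which holds TCGTAAA, was found in 0 promoters of either set and 0.0888% of all, and CCAATAAA in 0 of either set and 0.85% of all. GTTAAT was found in 6.86% of the higher promoters, 5 of the 24 lower ones (20.8%) and 3.89% of all. CAAAGTCCA, which holds AAAGTCC, was found in 3 of the higher promoters (2.94%), 0 of the lower ones and 0.444% of all. Shares of 12.5% in the lower set stand for 3 promoters each. GATAA and the pair of strings before it were thus more frequent in both sets than over all genes, as AAAGTCC was in the higher set, and both sets had a lower GC content, whose part was not tested. A match is a description, not a site.

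The 200 bases before the start are shown for 3 higher genes with a match to AAAGTCC. The string was picked for display after the shares of all 12 had been seen, and the genes after the matches were known, so that the string can be seen in place. They run 5′ to 3′ on the gene's strand, with the match in capitals (GGACTTT where it lies on the other strand). The match starts 140, 85 and 78 bases before the start in Ces2c (chr8:104846868-104847067, + strand), Nr1h4 (chr10:89506659-89506858, - strand) and Lgals2 (chr15:78855530-78855729, - strand).
Ces2c: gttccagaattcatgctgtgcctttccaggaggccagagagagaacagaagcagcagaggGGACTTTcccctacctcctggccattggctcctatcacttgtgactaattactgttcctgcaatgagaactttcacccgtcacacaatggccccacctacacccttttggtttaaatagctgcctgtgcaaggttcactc
Nr1h4: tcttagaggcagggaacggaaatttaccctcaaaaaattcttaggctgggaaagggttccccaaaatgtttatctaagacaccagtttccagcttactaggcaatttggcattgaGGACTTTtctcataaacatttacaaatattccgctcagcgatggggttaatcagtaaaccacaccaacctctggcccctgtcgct
Lgals2: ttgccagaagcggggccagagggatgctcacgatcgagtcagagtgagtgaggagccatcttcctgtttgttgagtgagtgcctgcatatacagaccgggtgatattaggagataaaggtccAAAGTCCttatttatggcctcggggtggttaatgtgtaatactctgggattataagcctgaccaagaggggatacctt
Ces2c was at 339, 460, 157 and 387 CPM in Control 3 to 6, at 130 and 91.9 CPM in Control 1 and 2, with 38.5 to 100 CPM across the GF libraries. Lgals2, which encodes galectin-2, was at 5.09, 9.49, 10.8 and 6.26 CPM against 1.37 and 4.45 CPM, a difference of 1.41 that was 2.12 without Control 2 and 0.71 without Control 1. Nr1h4 had the tightest Hox-low values of these 3 genes.

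The lower set was led by secreted products of the mucosa. Mptx1 (ENSMUSG00000026531, chromosome 1, 174330518 to 174332873), mucosal pentraxin, was at 216, 255, 274 and 261 CPM in Control 3 to 6, at 15370 and 17990 CPM in Control 1 and 2, with 1155 to 21640 CPM across the GF libraries. The difference was -6.05, the largest of all genes named. Sval1 (chromosome 6, 41951630 to 41956098) stood at 2.08, 3.39, 4.23 and 3.81 CPM against 79 and 277 CPM, a difference of -5.30 that was -4.39 without Control 2 and -6.20 without Control 1. Spink1, a trypsin inhibitor, was at 2.27, 2.21, 4.03 and 5.44 CPM against 13.7 and 28.4 CPM, a difference of -2.43. The Hox-low libraries lay below all GF libraries in these 3 genes.

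A run of secreted phospholipase A2 genes on chromosome 4 was lower together. Pla2g2f (chromosome 4, 138750533 to 138757626) stood at 4.19, 3.25, 9.52 and 5.89 CPM in Control 3 to 6, at 64.1 and 130 CPM in Control 1 and 2, with 24.5 to 174 CPM across the GF libraries, a difference of -3.99. Pla2g2a was at 4.66, 1.75, 10.3 and 4.35 CPM against 16.9 and 30 CPM, and Pla2g5 at 9.55, 5.4, 13.5 and 7.84 CPM against 20.5 and 27.5 CPM. Their differences were -2.21 and -1.41, Control 5 was the highest of the 4 libraries in all 3 genes, and Pla2g2a and Pla2g5 overlap on opposite strands. Pla2g2a and Pla2g5 were chosen after their values were seen.

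Further leading genes of the lower set included enzymes and surface proteins. Anxa8, an annexin, was at 6.43, 7.83, 5.99 and 6.42 CPM against 57.5 and 56.7 CPM, a difference of -3.01. Thbs4, a thrombospondin of the matrix, was at 22.9, 11.6, 13.8 and 16.9 CPM against 111 and 116 CPM, a difference of -2.81. Nt5e, which encodes the ectoenzyme CD73 that forms adenosine, differed by -2.63, B3gnt5, which starts lacto-series glycolipids, by -2.68, and Ggh, which trims folate polyglutamates, by -2.66. Rdh9, a retinol dehydrogenase, and Ctse, the aspartic protease cathepsin E, differed by -2.38 and -2.37. The highest Hox-low library of Ctse equalled the lowest GF library to 3 digits, at 10.4 CPM, the narrowest gap of these 7 genes.

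Enteroendocrine genes went in both directions. Insl5 (ENSMUSG00000066090, chromosome 4, 103017872 to 103026842) stood at 3.57, 1.93, 3.63 and 4.47 CPM in Control 3 to 6, at 79.1 and 106 CPM in Control 1 and 2, with 13.5 to 100 CPM across the GF libraries, a difference of -4.61. Pyy, the L cell hormone peptide YY, was at 35.5, 23.4, 25.9 and 31.7 CPM against 78.8 and 75.2 CPM, but GF libraries ranged from 20.7 to 136 CPM and overlapped. Sct (chromosome 7, 141278330 to 141279133), which encodes secretin, was higher at 15.8, 49.9, 17.2 and 23.8 CPM against 4.6 and 3.31 CPM, and 0.735 to 7.27 CPM in the GF libraries, a difference of 2.47.

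The chromogranin genes, whose products fill hormone granules, were also higher. Chga (chromosome 12, 102554969 to 102565028) stood at 195, 94.8, 80.5 and 187 CPM in Control 3 to 6, at 48.6 and 28.7 CPM in Control 1 and 2, with 11.2 to 40.7 CPM across the GF libraries, a difference of 1.78. Chgb was at 313, 140, 134 and 238 CPM against 88 and 37.6 CPM, a difference of 1.74 that was 1.13 without Control 2 and 2.35 without Control 1. Over the 13 measured enteroendocrine and tuft cell genes 3 were higher and 1 lower, beside 1.20% and 0.358% over all genes. Their median of 0.18 lay near the 0.13 of all genes. Pyy and Chgb were chosen after their values were seen.

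Genes of goblet cells and mucus had a median difference of -0.06 over 30 measured members. By the full rule 1 was higher and 0 lower, beside 1.20% and 0.358% over all genes. Against Control 1 and 2 alone 2 were higher and 6 lower, beside 2.53% and 1.26%. Gcnt3, which branches O-glycans of mucins, was at 334, 306, 304 and 263 CPM in Control 3 to 6, at 89.3 and 33.4 CPM in Control 1 and 2, with 56.3 to 192 CPM across the GF libraries, a difference of 2.45 that was 1.75 without Control 2 and 3.15 without Control 1. Muc2, the gel-forming mucin, was at 10480, 3280, 8003 and 7294 CPM against 4337 and 3739 CPM and overlapped. Fcgbp, Clca1 and Ang4, which encode secreted epithelial proteins, had differences of -1.96, -1.59 and -2.33, and in all 3 genes GF libraries reached into the Hox-low range. Reg4 differed by -2.69, but Control 4 stood at 1816 CPM beside 65.4, 237 and 70.8 CPM in the other Hox-low libraries, and the difference was -3.73 without it, -1.67 without Control 2 and -3.72 without Control 1. Muc2, Fcgbp and Clca1 were chosen after their values were seen.

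Most immunoglobulin and B-lineage genes had a difference below 0, but few were counted as lower. Of 16 measured plasma cell genes 14 had a difference below 0, where 3918 of all 10895 genes did, and the median was -1.24. By the full rule 1 was lower and against Control 1 and 2 alone 9, beside 0.358% and 1.26% over all genes. Mzb1 (chromosome 18), a chaperone of antibody-secreting cells that was chosen after its values were seen, was at 31.1, 8.19, 21.8 and 33.1 CPM in Control 3 to 6, at 53.7 and 106 CPM in Control 1 and 2, with 49.5 to 249 CPM across the GF libraries. Ighg2c was at 78.5, 16.9, 41 and 86.2 CPM against 435 and 610 CPM, a difference of -3.45, but the lowest GF library stood at 49 CPM. Igha, the constant gene of the IgA class that dominates the gut, was at 6240, 1026, 3902 and 2810 CPM against 6615 and 3034 CPM and overlapped.

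Control 4 was the lowest Hox-low library in Mzb1, Ighg2c and Igha, and the summed level of the plasma cell genes ran from 3004 to 13550 CPM in the Hox-low libraries against 12750 and 17830 CPM in Control 1 and 2. Of 9 genes of B cells and follicles, all had a difference below 0, where 3918 of all 10895 genes did, and the median was -0.99. Only Cd79b was counted as lower, beside 0.358% over all genes. Cd79b, part of the B cell receptor, was at 7.44, 4.11, 8.22 and 7.62 CPM against 14.1 and 79.2 CPM, so its difference of -2.26 was -1.04 without Control 2 and -3.48 without Control 1. Among 140 measured immunoglobulin variable segments the median difference was -0.71. In 14 the mean was at least 2-fold lower with all Hox-low libraries below Control 1 and 2, beside 1.26% over all genes. In the other direction 0 met the same rule, beside 2.53%.

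**Figure D3:**
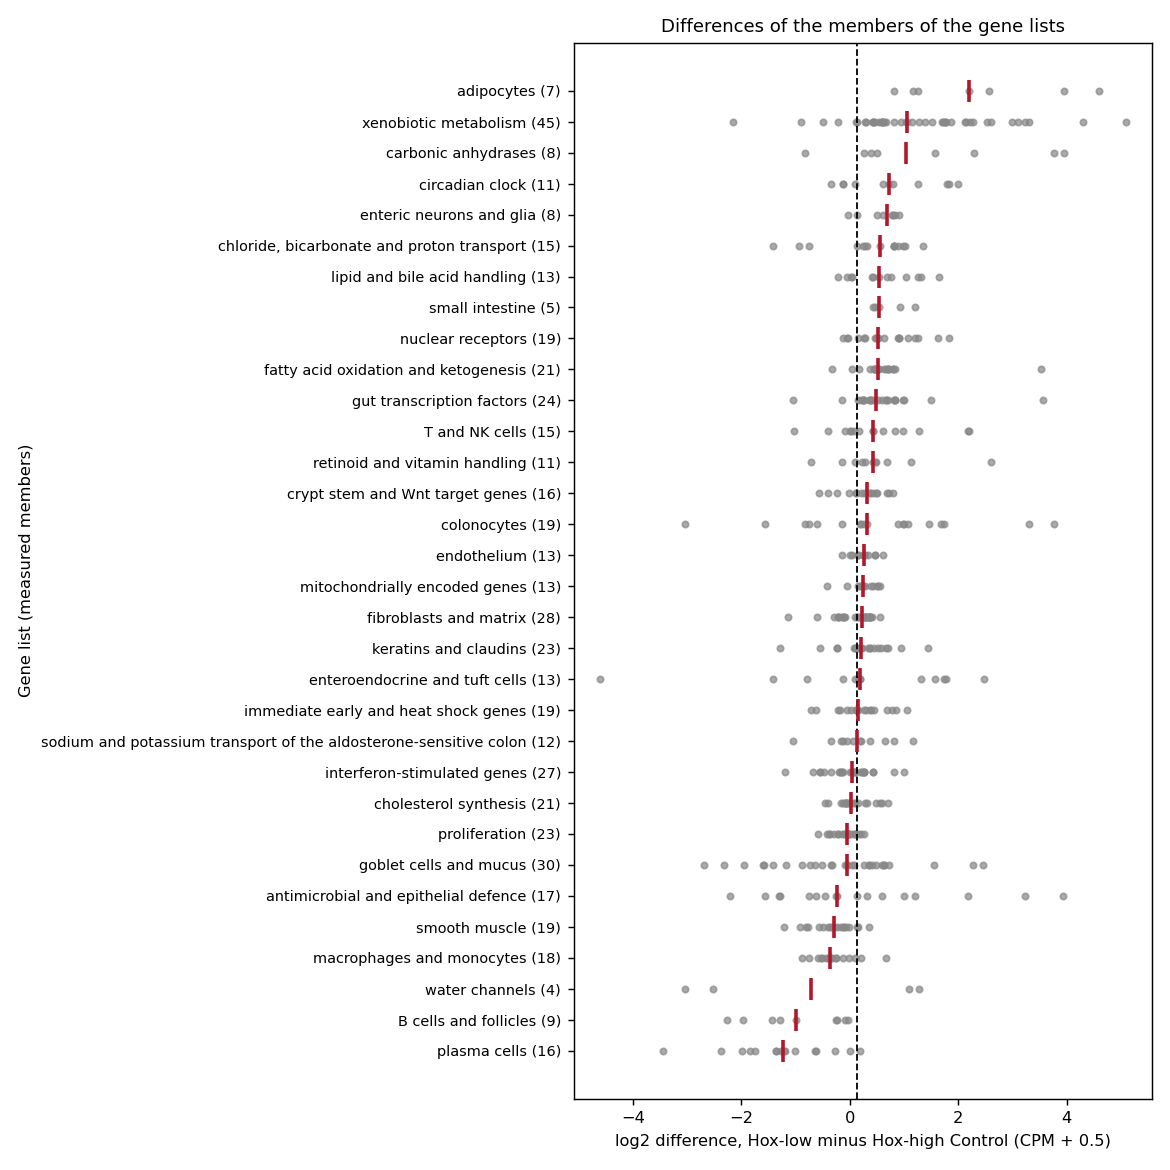
Difference of each measured gene (grey points) of the gene lists with 4 or more measured members, as mean log2(CPM + 0.5) of the Hox-low minus that of the Hox-high Control libraries, with the list median as a red bar and the median of all genes (0.13) as a dashed line. Adipocyte and xenobiotic metabolism genes have the highest medians, at 2.20 and 1.05, and plasma cell genes the lowest, at -1.24.

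Genes of fat cells were higher, with Cfd and Car3 among the leading genes. All 7 measured adipocyte genes, of 15 listed, had a difference above 0, where 6977 of all 10895 genes did. Of the 7, 5 were counted as higher, beside 1.20% over all genes, and the median was 2.20. Their summed level was 520 to 1406 CPM in the Hox-low libraries, 217 and 268 CPM in Control 1 and 2, and 184 to 280 CPM in the GF libraries. Cfd (chromosome 10, 79890853 to 79892655), which encodes the adipose-secreted complement factor D, was at 61.8, 75.4, 47.3 and 193 CPM in Control 3 to 6, at 7.52 and 0.922 CPM in Control 1 and 2, with 3.33 to 35.3 CPM across the GF libraries. Its difference was 4.59, and 3.34 without Control 2 or 5.84 without Control 1.

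Car3 (chromosome 3, 14863512 to 14872523), a carbonic anhydrase of fat and muscle, was at 92.3, 99.6, 64 and 268 CPM against 11.4 and 3.89 CPM, a difference of 3.96 that was 3.24 without Control 2 and 4.68 without Control 1. Cidec, a coat protein of lipid droplets, was at 23.3, 29.6, 21.4 and 64 CPM against 7.47 and 3.11 CPM, a difference of 2.56. Lpl, lipoprotein lipase, was at 51.6, 61.4, 60.3 and 154 CPM against 24.1 and 10.1 CPM, and Control 6 was the highest library in all 4 genes. Fabp4, the fatty acid binding protein of adipocytes, was at 92, 101, 64 and 227 CPM against 46.6 and 49.5 CPM, with GF libraries up to 105 CPM. The part of attached fat in the counts of Cfd, Car3, Cidec, Lpl and Scd1 was not tested. Adipoq, Plin1 and the other listed genes were not among the genes measured, so the list rests on the 7 that were. Lpl and Fabp4 were chosen after their values were seen.

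In the lists of several other cell types and functions no gene was counted. Lists of this size would often give this at the 1.20% and 0.358% counted over all genes. Of 19 smooth muscle genes 0 were counted, with a median difference of -0.30. Des, a muscle intermediate filament, was at 472, 348, 258 and 940 CPM in Control 3 to 6 against 847 and 848 CPM, so Control 6 again stood apart. Of 23 proliferation genes 0 were counted with a median of -0.05, of 21 genes of cholesterol synthesis 0 with a median of 0.02 that was -0.12 with TMM scaling, of 16 crypt stem and Wnt target genes 0 with a median of 0.32 (Prom1 did not overlap between the sets but differed by 0.69), and of 18 macrophage and monocyte genes 0 with a median of -0.36. T and NK cell genes had a median of 0.42 over 15 genes, with Gzma and Gzmb highest in Control 5 at 46 and 83.5 CPM. The list of antimicrobial and epithelial defence genes, unlike these, had counted members. Of 17 measured 0 were higher and 2 lower, Pla2g2a and Slpi, beside 1.20% and 0.358% over all genes. The median was -0.23. Reg3b, an antimicrobial lectin of that list, was not counted. It was at 34.3, 17.9, 655 and 583 CPM against 5.43 and 10.7 CPM, so Control 5 and 6 carried its difference of 3.94. GF libraries ran from 10.4 to 700 CPM.

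Genes of small intestine and squamous epithelium were looked at since a piece of gut may hold more than colon. A marker present in the 4 Hox-low libraries alone could not be in the table, which asks for signal in 15 or more libraries. The genes below had signal in nearly all libraries, so they cannot show whether such tissue was present. Of the small intestine list 5 of 20 genes were measured and 0 were counted, and the median difference was 0.54. Enpep had the largest, 1.20, at 19.7, 12.1, 15.7 and 19.5 CPM against 11.8 and 3.92 CPM. Of the squamous list 3 of 18 genes were measured, with differences of 0.77 for Sprr1a, 0.13 for Sfn and 0.11 for Perp, the last 2 of which changed sign with TMM scaling. Those of Sprr1a and Sfn changed sign without Control 2, at -0.29 each.

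**Figure D4:**
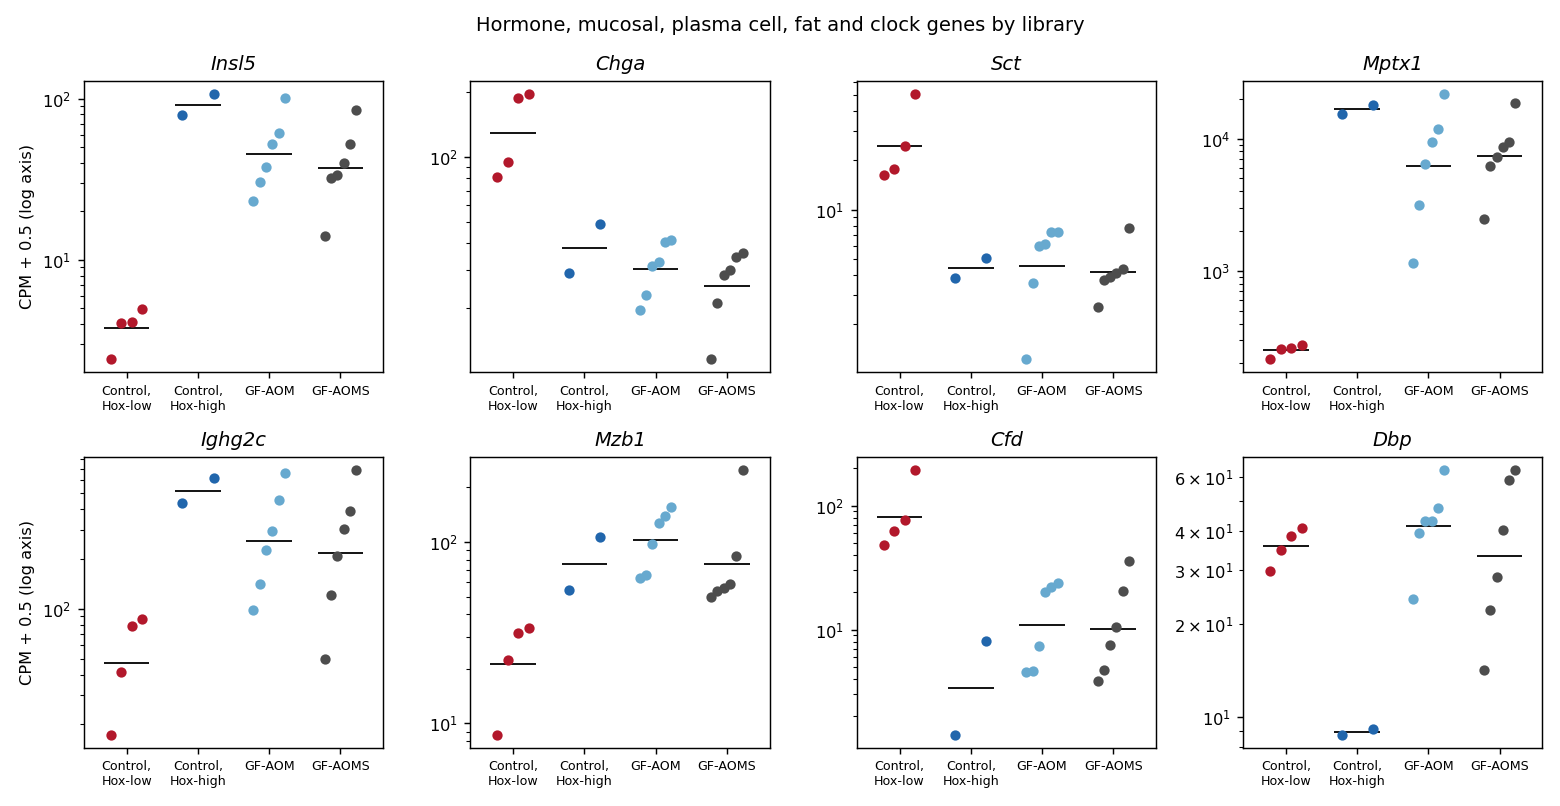
Levels of 8 genes in CPM + 0.5 on a log axis, with 1 point per library and a black line at the geometric mean of each set. Insl5 and Mptx1 are lower and Chga, Sct and Cfd higher in the Hox-low Control libraries than in all others, Mzb1 is lower, Ighg2c overlaps with the GF libraries, and Dbp sets Control 1 and 2 below the other 16 libraries.

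In some genes Control 1 and 2 stood apart from the GF libraries as well as from the Hox-low libraries. By a rule chosen after the values were seen, genes were counted where Control 1 and 2 lay on one side of all other 16 libraries and at least 2-fold from the Hox-low mean. This gave 6 genes above (0.0551%) and 7 below (0.0642%). Edn2, Nt5e and Anxa3 among them are also counted in the 131 or 39 genes, so there the Hox-low libraries stood apart from all GF libraries too. The 7 below were Cd200r2, Fbxw4, Edn2 and the clock-controlled genes Dbp, Tef, Nr1d1 and Nr1d2. Dbp (chromosome 7, 45705088 to 45710203), a factor that cycles with the time of day, was at 37.9, 34.3, 40.3 and 29.1 CPM in Control 3 to 6, at 8.27 and 8.61 CPM in Control 1 and 2, with 13.7 to 62.6 CPM across the GF libraries.

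Nr1d1, the clock repressor REV-ERBα, was at 132, 126, 91.1 and 82.7 CPM against 31.7 and 26.9 CPM, with 35.4 to 96 CPM in the GF libraries. Tef was at 69.5, 75.8, 73.4 and 42.3 CPM against 16.9 and 18.9 CPM. Of the 11 measured clock genes, 4 were higher against Control 1 and 2 alone and 0 by the full rule, beside 2.53% and 1.20% over all genes. Those 4 are the genes already named by the rule chosen after the values were seen. The median of the list was 0.73. The labels used here give no time of collection, and its part in these values was not tested. Of the 6 above, 5 were Nt5e, Anxa3, Isg15, Trex1 and Spon2, and 1 was an immunoglobulin variable segment. Isg15, induced by interferon, was at 30.7, 101, 58.8 and 74.9 CPM in Control 3 to 6, at 133 and 150 CPM in Control 1 and 2, with 6.44 to 109 CPM across the GF libraries.

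Within the Hox-low set the libraries differed from each other too. Control 4 was the highest of the 4 in 69 of the 131 higher genes, Control 3 in 29, Control 5 in 19 and Control 6 in 14. The median difference of the 131 genes was 1.71 in Control 4, 1.54 in Control 3, 1.39 in Control 5 and 1.37 in Control 6. In the 39 lower genes, Control 4 was the lowest of the 4 in 21, and the medians ran from -2.20 in Control 4 to -1.86 in Control 5. In the GF libraries the 131 genes were close to Control 1 and 2, with median differences from them of 0.07 in GF-AOM and 0.00 in GF-AOMS, and the 39 genes lay at -0.27 and -0.17. The choice of genes asks the GF libraries to lie on the side of Control 1 and 2, so this follows in part from the rule.

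The 12 GF libraries were not used to divide the Control libraries, and Hoxb13 varied among them from 14.3 to 319 CPM. The slope of each gene on log2(Hoxb13 CPM + 0.5) was therefore tested in them with edgeR's quasi-likelihood test, with the group as a covariate and Benjamini-Hochberg adjustment over 10895 genes. At an adjusted p under 0.05, 32 genes (0.294%) rose with Hoxb13 and 115 (1.06%) fell. Of the 131 genes higher in the Hox-low libraries 3 fell with Hoxb13 and 0 rose, and of the 39 lower genes 3 rose and 3 fell. The median slope was -0.05 for the 131 genes, 0.05 for the 39 genes and 0.01 for all genes. The 131 and 39 genes were chosen in part by their levels in these same 12 libraries. Their overlaps with the slope and their median slopes are thus a description, not a test of the contrast.

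The 3 higher genes that fell were Prap1, with a slope of -0.73 per log2 unit of Hoxb13 (SE 0.11, edgeR adjusted p = 0.0364), H2-T3, with -0.64 (SE 0.12, edgeR adjusted p = 0.0372), and Ces1f, with -0.44 (SE 0.10, edgeR adjusted p = 0.0486). The lower genes that rose were Anxa8 (slope 0.41, SE 0.06), Pla2g2f (0.53, SE 0.10) and Thbs4 (0.44, SE 0.09). As many of the lower genes fell, namely Mzb1 (slope -0.55, SE 0.12, edgeR adjusted p = 0.0474), Glipr1 and Sp140. Car1 had a slope of 0.01 (SE 0.18), Ugt1a1 of -0.14 (SE 0.31) and Insl5 of 0.39 (SE 0.15, edgeR adjusted p = 0.0905), and none of these passed. Of the other genes with the smallest p, B3gnt7, Ascl2, Gdpd1 and Tspan5 rose and Cav3, Ctxn3, Rgs2 and Hoxa11 fell. Hoxa11 had a slope of -0.4 (SE 0.06), though its difference between the Control sets was also below 0, at -0.78. Hoxa10 and Hoxa11os, counted as lower in the Hox-low libraries, had slopes of -0.15 (SE 0.05) and -0.14 (SE 0.06), and neither passed.

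These counts turned on single libraries. GF-AOMS 2 had the lowest Hoxb13 and, at 23.9%, the highest ribosomal protein share. Without it 0 genes rose and 0 fell by edgeR, with 461 at an unadjusted p under 0.05 against 3994 with it. Both counts were also 0 without GF-AOM 5, GF-AOMS 3 or GF-AOMS 6, where 3150 to 3906 genes stayed at an unadjusted p under 0.05. They were at most 1 without GF-AOM 1, GF-AOM 6 or GF-AOMS 4. Without GF-AOM 2 they were 9 rising and 27 falling, and without GF-AOMS 5 they were 3 and 15. Without GF-AOMS 1, GF-AOM 3 or GF-AOM 4 they were 117 and 321, 1075 and 1561, and 1472 and 1758. With the ribosomal protein share as a further covariate 2 genes rose and 0 fell, and Pla2g2f was among them (slope 0.73, edgeR adjusted p = 0.0223). The parts of Hoxb13, that share and GF-AOMS 2 in these slopes cannot be told apart.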

How the data were processed

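The deposited table holds, per the file headers, read counts per gene for each of the 18 libraries and FPKM values, both computed by the authors. The submitters' processing notes name featureCounts, DESeq2 and build GRCm39. Tool versions and aligner: not given in the sources used here. GENCODE M21 held 10890 of the gene identifiers, and for 93.1% of them the table's positions were within 100 bases of that annotation, which is on GRCm38. Each count was divided by its column total and scaled to CPM, and 0.5 was added before log2. The 4 Hox-low and 2 Hox-high Control libraries were selected on measured Hoxa13 and Hoxb13, so no test was made between them. The members and lists were chosen with earlier results of these data known. By rule, the genes named are the 15 per direction with the largest differences among those counted with a mean of at least 5 CPM in the higher set, Car1, up to 3 members of each gene list with the largest differences, and 5 genes per direction with the smallest p of the slope. Some genes that the rule takes are left out of the text and not replaced, and clones, predicted genes, pseudogenes and immunoglobulin variable segments enter counts only. Slopes in the 12 GF libraries were fitted to the deposited counts with TMM scaling (edgeR 4.0.16, R 4.3.3), by a script tested on simulated data. Alternatives used limma 3.58.1 and DESeq2 1.42.0, other scalings, FPKM, pseudocounts, filters, fold thresholds, a replicate block and leaving out each library. Since the libraries are not said to be separate mice, p-values may reflect technical spread alone.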

Additional observations from a re-analysis of the deposited data

Results flagged for a closer look

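In 13 of 186 groups of values looked at, 1 library stood far from the others of its set, and chance gives about 1 in 20 such groups. The groups were the 4 Hox-low libraries for each gene given values, the library measures in each group, and the Hox genes that divided the libraries in each GF group. Control 4 stood apart in Aqp8 at 298 CPM, in Reg4 at 1816 CPM and in Ugdh at 746 CPM, each the highest of the 4. Control 5 was the highest in Hoxb13 at 3.07 CPM, in Cldn2 at 393 CPM, in Gzmb at 83.5 CPM and in Gzma at 46 CPM, and the lowest in Car4 at 135 CPM. Control 6 was the highest in Hoxa11os at 6.73 CPM, in Cav3 at 3.22 CPM and in Lpl at 154 CPM, and the lowest in Slc35d1 at 73.2 CPM. Control 3 was the highest in Fcgbp at 1605 CPM. The part of the amount of fat, muscle or lymphoid tissue in these values was not tested.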

How the results depend on the processing

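The 131 higher and 39 lower genes became 101 and 68 with TMM scaling, 34 and 20 at a 4-fold threshold, and 276 and 137 when the GF libraries were not asked to lie on the Hox-high side. With FPKM, pseudocounts of 0.1 and 1, a mean of at least 10 CPM, and, chosen after seeing the data, GF-AOMS 2 not used or ribosomal protein genes taken out, the counts were within 1.5 times the reported ones. Leaving out each Control library in turn gave 79 to 225 higher genes and 38 to 58 lower genes. Among 171 named genes, 15 values under other scalings or omissions had the other sign, 0 of them in the 62 genes counted by the description.

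The slopes on Hoxb13 depended on nearly every choice. Genes rising and falling numbered 31 and 121 with RLE scaling, 1 and 1 with column totals, 974 and 1156 with DESeq2, 6 and 4 with limma-trend, 20 and 78 at a mean of at least 10 CPM, 2658 and 2619 with Hoxa13 in place of Hoxb13, and 2 and 0 with the ribosomal protein share added. Leaving out each GF library in turn gave 0 to 1472 rising and 0 to 1758 falling genes, the most without GF-AOM 4. The cause was not tested. With the replicate number as a block 0 genes rose and 0 fell, with 2318 at an unadjusted edgeR p under 0.05. Deviations from the group mean correlated at -0.619 to 0.31 between same-numbered GF libraries. The labels do not say whether the numbers pair the samples, and these values cannot settle it. The contrast of the Control sets has 2 libraries on the Hox-high side, which limits its precision.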
